A study of Mus musculus with 6 samples.

Results

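The genes described here build and supply the cilium of the photoreceptor. The list holds 42 mouse genes of the BBSome, of intraflagellar transport (IFT), of the connecting cilium and of the photoreceptor axoneme. They were chosen by name and role, not by a measured value, but with earlier results of these data known. All 42 were found among the 21938 protein-coding genes of the GENCODE vM21 basic annotation on GRCm38. H3K27ac, the acetylated form of a lysine of histone H3 that is found at active promoters and enhancers, was measured by ChIP-seq in bulk retina of WT mice that were 3 months old at the first pressure elevation. In the 4xIOP group (3 retinas) one eye underwent a constant intraocular pressure (IOP) of 30 mmHg for 1 h, given biweekly and 4 times. The control group (3 retinas) consisted of untreated contralateral eyes. Tissue of both groups was taken on day 2 from the 4th elevation. The treatment text of the labels also speaks of intraperitoneal dasatinib or vehicle, which the sample labels assign to no retina. The labels do not say which control eye belongs to which treated eye.

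Each retina is represented by 1 peak list, and a gene was counted as marked when a peak overlapped the window of 2.5 kb on either side of any of its transcription start sites (TSS). In 4 of the 6 lists (control replicates 1 and 2, 4xIOP replicates 1 and 2) the name carried by the list is that of the other group. No sample was moved to another group, and the directions below are those of the groups as labelled. The lists held between 16195 (4xIOP replicate 3) and 36509 peaks (control replicate 3), and their mean background lay between 87.4 and 173 fragments per 10000 bp. The labelled tissue was checked against markers. Of 8 rod and cone genes, 6 or 7 were marked in each list, with Arr3 in none of them, whereas 0 of 4 microglia and 0 of 4 pigment epithelium genes were marked in any list. Of 4 ganglion cell genes, 0 were marked in each control list and 1, 0 and 1 in the 4xIOP lists. Of 4 endothelium and pericyte genes, 1, 0 and 1 were marked in the control lists and 0 in each 4xIOP list. Per list, 1 or 2 of 4 Müller glia genes and 1 or 2 of 4 amacrine and horizontal cell genes were marked. Of 4 bipolar cell genes, 2, 1 and 4 were marked in the control lists and 1 in each 4xIOP list. The part of these cell types in the results was not tested. In bulk tissue, fewer cells of a type and less mark per cell cannot be told apart.

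The outer segment of a rod or cone is a modified cilium that is renewed throughout life, so its proteins have to pass a narrow connecting cilium. IFT trains carry cargo along the axoneme: the IFT-B complex travels outward with kinesin-2, and IFT-A is needed for the return. The BBSome is a coat complex that moves membrane proteins out of and along cilia, and gatekeeping proteins of the transition zone control entry. Mutations in many of these genes cause retinal degeneration, alone or within syndromes such as Bardet-Biedl syndrome, nephronophthisis and Joubert syndrome.

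Most of these promoters carried H3K27ac in every retina. A promoter peak was found for 39, 38 and 42 of the 42 genes in the control lists (replicates 1 to 3, an order kept throughout) against 40, 37 and 37 in the 4xIOP lists. The mean was 39.7 ± 2.08 genes in control against 38.0 ± 1.73 in 4xIOP (SD, n = 3), or 94.4% ± 4.96 and 90.5% ± 4.12 of the list. In the same lists, between 44.6% and 56.9% of all protein-coding genes were marked. In all 6 lists together, 34 of the 42 genes (81.0%) had a peak, against 39.5% of all genes. No member was without a peak in all lists, as 42.4% of all genes were, and 8 had one in 1 to 5 lists. A broader list of 54 other cilium genes gave a like picture: 53 were in the annotation, and 50 to 52 of them were marked per list, 49 in all 6.

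**Figure D1:**
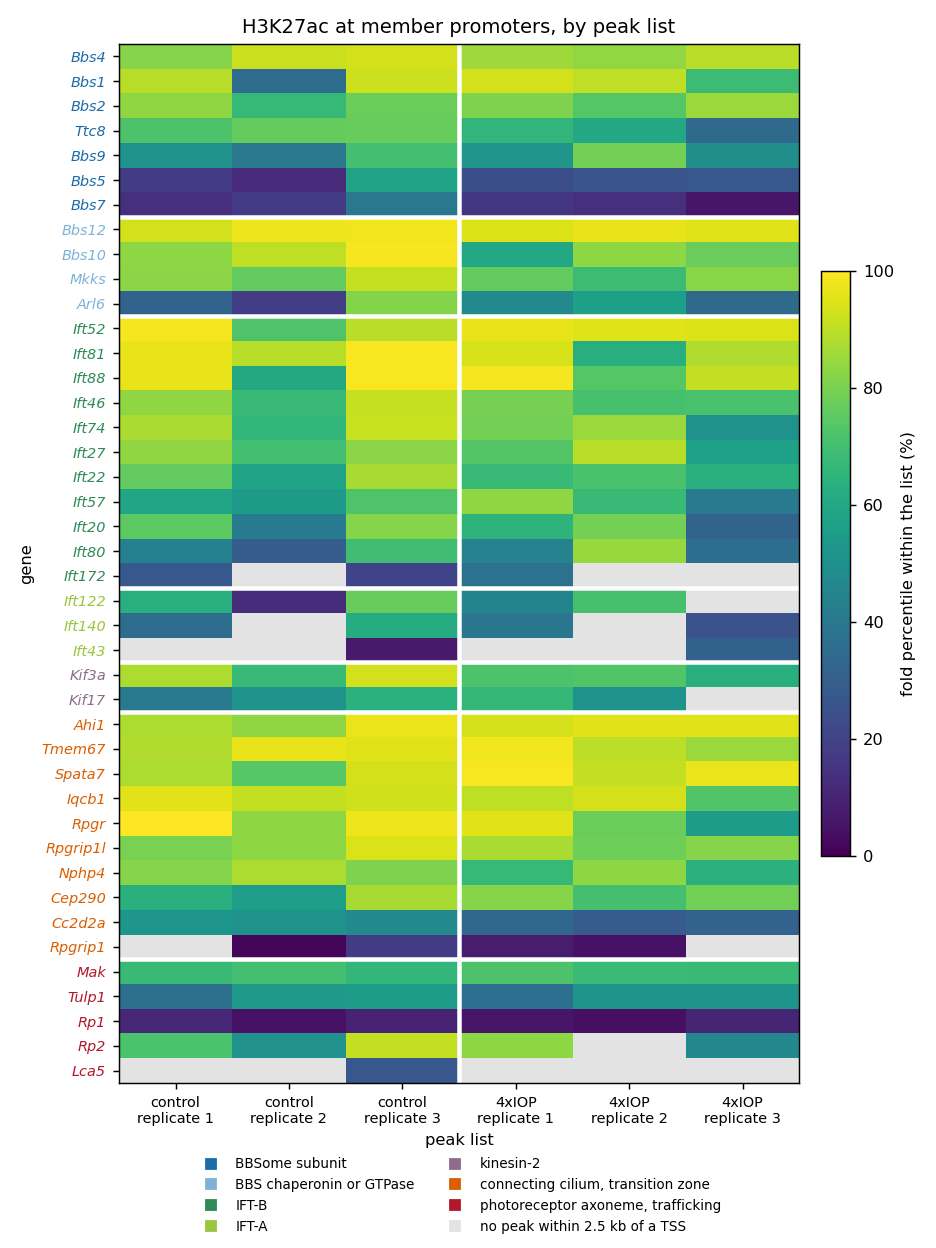
Highest fold enrichment of a promoter peak of each of the 42 genes (rows, grouped and coloured by role) in each of the 6 peak lists (columns), as a percentile among all peaks of that list, with grey where no peak lay within 2.5 kb of a TSS. The 34 genes marked in all 6 lists have no grey cell, and all 3 IFT-A genes have at least 1.

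Peak strength within a list is given as the fold percentile, the share of the list's peaks with a fold enrichment at or below that of the gene's strongest promoter peak. Over the marked members its median was 79.9, 66.6 and 82.4 in control against 72.7, 73.5 and 63.5 in 4xIOP. Over all marked genes it was 74.7, 73.2 and 82.6 in control against 73.7, 74.2 and 69.0 in 4xIOP. The members were thus above the median of all genes in control replicate 1 only, and below it in the other 5 lists.

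The BBSome came first. All 7 of its subunits in the list were marked in all 6 lists. Bbs4, which helps to bring the complex to the centriolar satellites, lay between the fold percentiles 81.9 and 93.6. Bbs1, carrier of the most frequent Bardet-Biedl mutation, had percentiles of 89.2, 35.9 and 92.3 in control against 93.0, 90.6 and 68.4 in 4xIOP. Its groups overlapped, and control replicate 2 stood lowest. Bbs2 (66.8 to 84.8), Ttc8 (34.4 to 76.6) and Bbs9 (40.2 to 79.2) were intermediate. Bbs5 and Bbs7 were among the 6 weakest members by fold. Bbs5 had percentiles of 17.5, 11.8 and 57.6 in control against 24.2, 26.2 and 27.6 in 4xIOP. Bbs7 had 13.5, 17.2 and 40.1 in control against 16.2, 13.7 and 6.16 in 4xIOP. Only in control replicate 3 did either of them pass the percentile 30.

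The chaperonin-like proteins that assemble the BBSome and the GTPase that recruits it to membranes formed the second group, with 4 of 4 genes marked in all 6 lists. Bbs12, a chaperonin-like assembly factor, was the strongest member by fold. Its percentiles were 93.2, 97.5 and 97.7 in control against 94.7, 96.6 and 95.1 in 4xIOP, so that no list placed it below 93. Bbs10 had 83.0, 90.3 and 98.6 in control against 59.7, 83.1 and 77.0 in 4xIOP, and Mkks lay between 68.6 and 91.3. Arl6, the small GTPase, was weaker and the most variable of the 4. Its percentiles were 31.7, 18.1 and 81.5 in control against 47.8, 56.3 and 34.7 in 4xIOP.

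In the IFT-B complex 10 of 11 genes were marked in all 6 lists. Ift52, a core subunit, was the strongest by mean, with percentiles of 98.7, 72.4 and 89.7 in control against 96.7, 95.3 and 94.7 in 4xIOP. Ift81, which binds tubulin together with Ift74, had 96.7, 89.2 and 99.2 in control against 93.9, 62.6 and 88.1 in 4xIOP. Control replicate 2 was the lowest list for Ift52, and 4xIOP replicate 2 for Ift81. Ift20, Ift22, Ift27, Ift46, Ift57, Ift74, Ift80 and Ift88 were marked in all lists with percentiles from 29.2 (Ift80) to 99.1 (Ift88). Ift172, a peripheral subunit, was the exception. It was called in control replicates 1 and 3 and in 4xIOP replicate 1, with percentiles of 27.7, 20.3 and 37.3.

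None of the 3 IFT-A genes was marked in all 6 lists, and their peaks were of middle or low strength where called. Ift122 was called in all lists but 4xIOP replicate 3. Its percentiles were 62.6, 12.8 and 76.9 in control against 45.0 and 70.9 in 4xIOP replicates 1 and 2. Ift140 was called in control replicates 1 and 3 (35.5 and 62.0) and in 4xIOP replicates 1 and 3 (39.3 and 25.5). Ift43 was called in control replicate 3 and 4xIOP replicate 3 only, at 7.04 and 31.1. In each of these genes the missing lists were spread over both groups or were a single list. Of the kinesin-2 motors, Kif3a was called in all lists at percentiles from 62.7 to 93.0. Kif17, the homodimeric motor, was missing from 4xIOP replicate 3 and had 40.9, 50.8 and 64.0 in control against 66.6 and 50.8 in the other two 4xIOP lists.

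At the connecting cilium and transition zone 9 of 10 genes were marked in all 6 lists, and this role held 4 of the 6 strongest members. Ahi1 (jouberin) had percentiles of 87.6, 83.5 and 97.1 in control against 93.7, 95.5 and 95.6 in 4xIOP. Tmem67 (meckelin), a transmembrane protein of the transition zone, had 88.2, 96.7 and 95.5 in control against 97.8, 90.0 and 84.9 in 4xIOP. The window of Tmem67 also holds a TSS of another coding gene, Rbm12b2, so its peaks cannot be assigned to one gene. Spata7, which maintains the distal part of the photoreceptor connecting cilium, had 87.7, 73.9 and 93.6 in control against 99.1, 90.7 and 97.0 in 4xIOP. Iqcb1 (nephrocystin-5) had 95.5, 91.0 and 92.8 in control against 90.6, 93.6 and 72.8 in 4xIOP. Rpgr, the X-linked retinitis pigmentosa gene, had 99.7, 83.0 and 97.4 in control against 95.7, 77.4 and 54.9 in 4xIOP. Cep290, Nphp4 and Rpgrip1l lay between 56.0 and 94.2.

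Cc2d2a and Rpgrip1 were the low members of this role. Cc2d2a, a Joubert syndrome gene, had percentiles of 52.6, 51.3 and 47.9 in control against 33.8, 28.8 and 31.4 in 4xIOP. Rpgrip1, which anchors Rpgr in the photoreceptor cilium, was called in control replicates 2 and 3 (1.44 and 17.8) and in 4xIOP replicates 1 and 2 (7.81 and 4.82). It was missing from 1 list of each group.

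Of the photoreceptor axoneme and trafficking genes, 3 of 5 were marked in all 6 lists. Rp1, the axonemal microtubule protein of rods and cones, had the lowest mean fold percentile (7.65) among the members marked in all lists. Its percentiles were 11.3, 4.87 and 9.95 in control against 5.53, 4.02 and 10.2 in 4xIOP. Tulp1, which is needed for transport of phototransduction proteins to the outer segment, had 37.1, 53.9 and 54.9 in control against 36.4, 51.7 and 51.7 in 4xIOP. Mak, a kinase that controls axoneme length, was the most even member of this role, at 66.2 to 72.1. Rp2, the GTPase-activating protein of the cargo-releasing GTPase Arl3, was called in all lists but 4xIOP replicate 2, at 71.5, 50.7 and 91.0 in control against 82.9 and 46.7 in 4xIOP. The promoter of Lca5 (lebercilin) was called in control replicate 3 only, at 27.1.

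Fold enrichment compares a summit with its own surroundings, so the low ranks of Rp1, Bbs7 and Rpgrip1 were set beside the fragments themselves. Fragments at the highest summit and the local background were recovered from fold and p of each peak and divided by the mean background of the list. Rp1 had 84, 66 and 97 fragments at its highest summit in control against 45, 60 and 42 in 4xIOP. That was on average 27.4 times the background mean, a level reached or exceeded by few of the 8669 genes marked in all 6 lists (percentile 92.1). Its local background was itself 10.1 ± 3.67 times the mean (SD over the 6 lists, range 5.16 to 14.9), at the percentile 98.9. Thus Rp1 was near the bottom by fold and near the top by fragments.

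Tulp1 had the highest summit of the members. It held 90, 96 and 165 fragments in control against 80, 87 and 68 in 4xIOP, on average 40.6 times the background mean, at the percentile 99.3. Its local background was 9.89 ± 3.49 times the mean (SD over 6 lists). Bbs7 had 58, 56 and 109 fragments in control against 58, 65 and 33 in 4xIOP, with a local background of 8.31 ± 2.87 times the mean (SD over 6 lists). Mak (6.99 ± 2.00) and Cc2d2a (6.57 ± 2.43) followed. Rpgrip1 had 44 and 85 fragments at its summit in control replicates 2 and 3 and 44 and 54 in 4xIOP replicates 1 and 2, with a local background of 5.76 to 11.6 times the mean in these 4 lists. Rp1, Tulp1, Bbs7, Mak and Cc2d2a were the 5 members at or above the percentile 95 of local background among the 34 marked in all 6 lists. The rod and cone markers Sag (15.4 ± 5.14 times the mean) and Gnat1, Nrl, Pde6b and Rcvrn (9.72 to 12.8 times) were there too.

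At the other end, Rpgr (1.18 ± 0.172), Rpgrip1l (1.43 ± 0.384), Ift52 (1.44 ± 0.229) and Spata7 (1.48 ± 0.289) stood on a local background close to that of the genome (SD over 6 lists). Their summits were lower, at 11.3 to 13.6 times the background mean. Over all 8669 genes the median local background was 2.40 times the mean, and 9.81% of them reached 5 times. Among the 34 members it was 2.64, with 7 genes at 5 times or more. Bbs12 combined a high summit (36.6 times the background mean) with a local background of 4.21 ± 0.921.

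**Figure D2:**
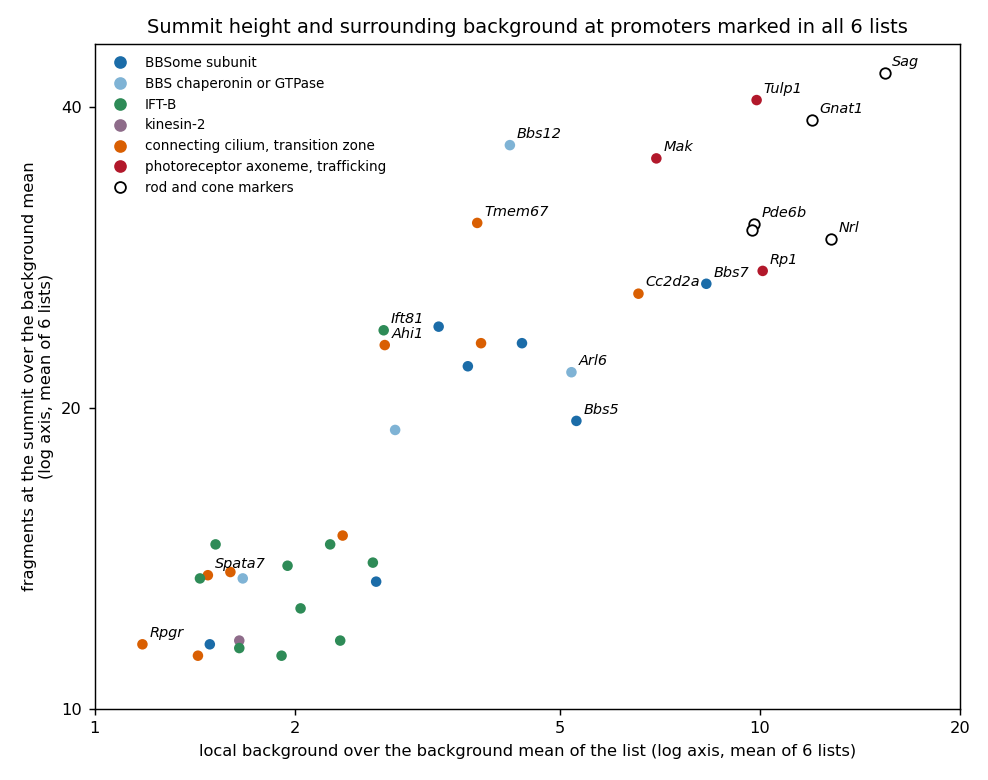
Fragments at the highest promoter summit (vertical) against the local background round it (horizontal), both over the background mean of the list, on log axes. Points are means over the 6 lists of the 34 members marked in all of them, coloured by role, and open points are 5 rod and cone markers. Rp1 and Tulp1 lie within the range of the rod and cone genes on the horizontal axis, Bbs7, Mak and Cc2d2a just below it, and Rpgr and Spata7 at the left.

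The total peak length at the promoter was on average 1460 bp for Rp1, 1614 bp for Mak and 1284 bp for Tulp1, at the percentiles 95.9, 97.5 and 92.0 of all genes marked in all 6 lists. Bbs7 and Bbs5 reached 522 bp each, at the percentiles 10.2 and 10.3, so a high local background did not always come with long peaks.

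Promoters shared with a neighbour were common. A coding gene on the opposite strand with a TSS within 1 kb was found for 10 of the 42 members (23.8%), against 10.0% of all coding genes. The pairs were Bbs12 and Cetn4 (108 bp apart), Mkks and Slx4ip (164 bp), Ift20 and Tnfaip1 (29 bp), Ift80 and Smc4 (168 bp), Ift122 and Mbd4 (99 bp), Ift140 and Cramp1l (297 bp), Cep290 and Tmtc3 (208 bp), Rpgrip1l and Fto (263 bp), Nphp4 and Kcnab2 (271 bp), and Iqcb1 and Eaf2 (146 bp). At the shared promoters of Mkks, Ift20, Cep290 and Rpgrip1l the strongest summit lay nearer to the partner's TSS in all 6 lists. At those of Bbs12 and Iqcb1 it lay nearer to the member's own TSS in all 6 lists. A peak at a shared promoter cannot be assigned to one of the 2 genes.

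Sequence at the start sites was compared next. RefSeq windows of 300 bases (250 before to 50 after the start, GRCm38.p6) were available for 37 of the 42 genes. Their median GC content was 59.3%, against 57.3% over 17491 coding genes, and their median ratio of observed to expected CpG was 0.795, against 0.609. The windows were searched on both strands for the X-box, the site bound by RFX factors, which control many cilium genes. The pattern was GTNNCCNNGGNNAC. A match was found for 7 of 37 members (18.9%) and for 9 of 45 other cilium genes (20.0%), against 2.26% of all coding genes with a window. The stricter pattern GTTNCCATGGNAAC matched 0 members and 0.114% of all genes. A match is a description of letters, and no binding was measured.

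The 8 X-box matches in the 7 members are printed on the strand of the gene, because they are the feature in which these promoters stood furthest from the rest. Capitals mark the match. Ahi1, Bbs1, Bbs7 and Nphp4 belong to the genes named by rule, and Bbs4, Ift22 and Ift57 were added after the matches were seen.
Ahi1 (chr10:20952568-20952581, + strand): GTTACCTAGGCAAC
Bbs1 (chr19:4906613-4906626, - strand): GTTGCCAAGGCGAC
Bbs4 (chr9:59353472-59353485, - strand): GTCGCCCGGGAAAC
Bbs7 (chr3:36613497-36613510, - strand): GTTGCCTTGGAAAC
Ift22 (chr5:136908087-136908100, + strand): GTTTCCTGGGCTAC
Ift22 (chr5:136908117-136908130, + strand): GTCGCCGTGGAAAC
Ift57 (chr16:49699207-49699220, + strand): GTTGCCGTGGTGAC
Nphp4 (chr4:152477911-152477924, + strand): GTCTCCTAGGTAAC

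The matches began 121 (Bbs7), 87 (Ift57), 63 and 33 (Ift22) and 231 bases (Nphp4) before the RefSeq start, and 1 (Bbs1), 21 (Ahi1) and 23 bases (Bbs4) after it. Among them were weak and strong promoters by fold, with a mean percentile of 17.8 for Bbs7 and 92.2 for Ahi1. The upstream sequence is shown for Bbs7, with its high local background, and for Nphp4, whose start is shared with Kcnab2. Each stretch begins 250 bases before the start and was cut where an annotated exon begins. Capitals mark the X-box match.
Bbs7 (GRCm38.p6 chr3:36613478-36613639, - strand): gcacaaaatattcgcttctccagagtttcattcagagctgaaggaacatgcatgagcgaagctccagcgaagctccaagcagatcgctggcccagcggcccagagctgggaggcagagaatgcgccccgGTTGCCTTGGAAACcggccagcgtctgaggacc
Nphp4 (GRCm38.p6 chr4:152477892-152478141, + strand): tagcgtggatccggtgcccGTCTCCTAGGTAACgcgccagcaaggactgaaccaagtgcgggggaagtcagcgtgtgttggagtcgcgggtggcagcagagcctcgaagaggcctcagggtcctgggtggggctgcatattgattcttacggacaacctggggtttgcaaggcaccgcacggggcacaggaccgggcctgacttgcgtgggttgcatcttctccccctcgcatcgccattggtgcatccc

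Other motifs were less particular in their share. The core TAATCC of CRX and OTX2, the homeodomain factors of photoreceptors, was found for 3 of 37 members (8.11%, Bbs1, Mak and Rpgrip1) and for 7.56% of all genes. In Rpgrip1 the match began 28 bases before the start. The NRF1 core GCATGCGC was found for 1 member (Kif3a) and 3.93% of all genes, the SP and KLF box GGGCGG for 23 members (62.2%) and 49.2%, and the ETS site CCGGAAG for 7 members (18.9%) and 12.9%. The GGGCGG box can overlap other GC-rich sites. Of these motifs, only the X-box differed from all genes by more than 2-fold.

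**Figure D3:**
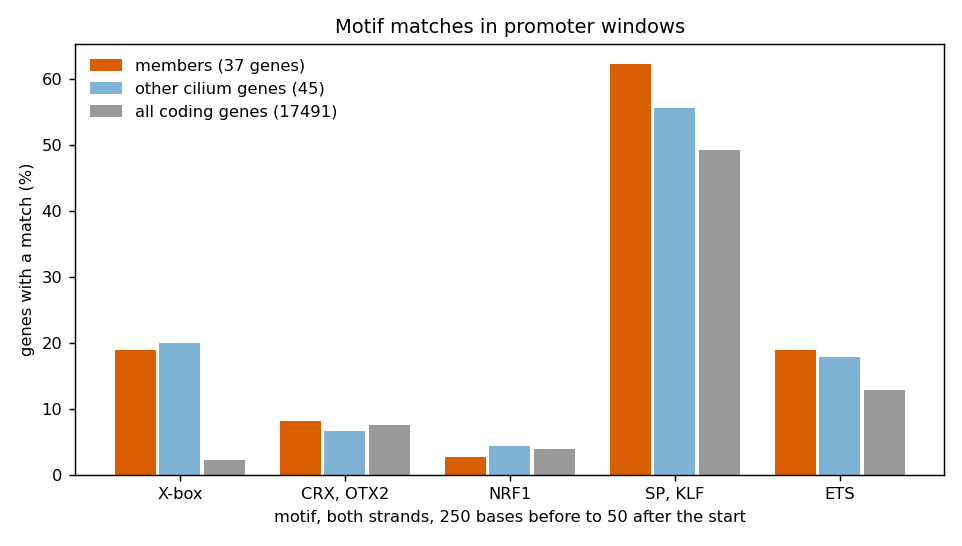
Share of genes (in percent) whose RefSeq promoter window holds a match of each motif, for 37 members, 45 other cilium genes and 17491 coding genes. The X-box stands at 18.9% and 20.0% in the cilium genes and at 2.26% over all genes.

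The comparison of 4xIOP with control asked whether the recurring pressure elevation changed the mark at these genes. No member promoter was marked in all 3 lists of one group and in none of the other. Over all 21938 coding genes, 79 promoters (0.360%) had this pattern with the mark in control, and 0 (0%) with the mark in 4xIOP. The difference in the number of marked members, 4xIOP minus control, was -1.67, within the spread between replicates. With every list shortened to its 16195 strongest peaks it turned to 1.67, so its direction depended on the length of the lists. With only the 2 lists whose carried name is that of their label (control replicate 3 and 4xIOP replicate 3), which are also the longest and the shortest list, it was -5.00. Then 5 of the 42 members (Ift122, Ift172, Kif17, Lca5 and Rpgrip1) were called in the control list alone, as were 12.5% of all coding genes, and 0 in the 4xIOP list alone, against 0.232% of all coding genes. The share of members was thus close to that of all genes.

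The strength of promoters marked in all 6 lists was compared with limma on scores, the fold ranked among these 8669 promoters within each list and turned into a normal score. At a Benjamini-Hochberg adjusted p of 0.05, 0 promoters were higher (0%) and 0 were lower (0%) in 4xIOP, none of the 34 members included, and the smallest adjusted p was 0.9996. At an unadjusted p under 0.05, limma gave 270 promoters (3.11%) and 3 members, Spata7, Rpgr and Bbs10. Of the 34 members, 19 differences were positive and 15 negative, with a median of 0.05 against 0.00 over all promoters. The scores did not overlap between groups in 2 members that were higher in 4xIOP, Spata7 and Bbs9 (4.25% of all promoters), and in 0 that were lower (3.93% of all promoters).

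Spata7 had scores of 0.49, -0.13 and 0.62 in control against 2.09, 0.77 and 1.64 in 4xIOP. The 4xIOP scores lay above those of control, and the difference was 1.18 ± 0.41 (SE, limma adjusted p = 0.9996). Its percentiles over all peaks, given above, did overlap. Bbs9 differed by 0.60 ± 0.38 and Ift52 by 0.70 ± 0.45 (SE). In the other direction Rpgr differed by -1.15 ± 0.53, Bbs10 by -0.90 ± 0.42 and Ift81 by -0.87 ± 0.44 (SE), and the scores of these 3 overlapped between the groups. None of the 6 differences passed the threshold, and each rests in part on the 4 lists whose carried name is that of the other group. With the lists grouped by carried name instead, and with no test, the differences of Spata7, Bbs9 and Ift81 change sign. All 6 are then smaller in size. Cc2d2a differed by -0.18 ± 0.37 in score (SE), and its scores overlapped between the groups.

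**Figure D4:**
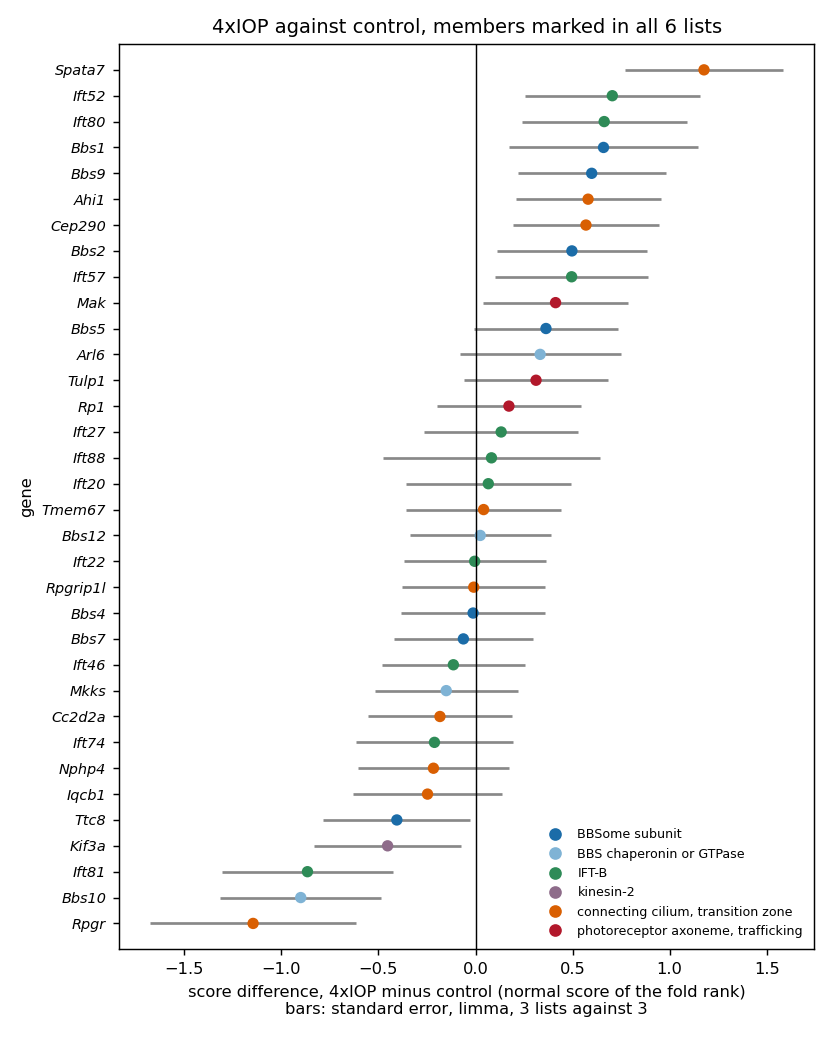
Score difference (4xIOP minus control) with its standard error for the 34 members marked in all 6 lists, from limma on 3 lists against 3, coloured by role. The points run from -1.15 (Rpgr) to 1.18 (Spata7), with 19 above and 15 below 0.

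The other cilium genes were no different in this test. Of 49 with a peak in all 6 lists limma called 0 (smallest adjusted p = 0.9996), and 1 (Kifap3, which links the kinesin-2 motor to cargo) had an unadjusted p under 0.05, with a difference of -1.05 ± 0.45 (SE). Tulp3, an adaptor between IFT-A and membrane proteins, was marked in 3 control lists and no 4xIOP list, as 0.360% of all genes were. The choice of both genes was made with their values in view.

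Peaks inside the genes but outside their promoters were found for 15, 15 and 21 of the 42 members in control against 14, 17 and 13 in 4xIOP. The mean was 17.0 ± 3.46 genes in control against 14.7 ± 2.08 in 4xIOP (SD, n = 3). The members are long, with a median of 50750 bp against 17425 bp over all coding genes, and 9 of them (21.4%) had such a peak in every list, against 6.54% of all genes. The number of peaks was 32, 31 and 73 in control against 26, 32 and 16 in 4xIOP, with the most in the longest list and the fewest in the shortest. The difference in genes was -2.33, within the spread between replicates, and turned to 3.00 with every list shortened to its 16195 strongest peaks.

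The union of the lists gave 78 gene-body regions of members that lay outside every coding promoter, of which every list called 10 (12.8%, against 8.93% of the gene-body regions of all coding genes) and a single list called 38 (48.7%, against 51.8%). Ift122 held 3 of the 10, and Bbs1, Bbs2, Ttc8, Cep290, Rpgrip1, Rp1 and Lca5 held 1 each. Places are those of the highest summit. Those with the highest mean fragments lay within Ift122, with the highest summits 37009 and 37660 bp from its nearest TSS. The first (chr6:115890054-115890782), whose summit fell in an exon in 4 lists and in an intron in 2, had 77, 65 and 118 fragments at its summit in control against 76, 81 and 49 in 4xIOP. The second (chr6:115891019-115891666), intronic in all 6 lists, had 71, 70 and 121 in control against 70, 77 and 40 in 4xIOP. In each of the 5 lists with a promoter peak of Ift122, both summits were higher than that of the promoter, which held 18 to 54 fragments. A further intronic region of Ift122 (chr6:115901316-115902383) had 59, 45 and 94 fragments in control against 44, 55 and 33 in 4xIOP.

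Lca5 was the clearest case of a gene marked more within its body than at its start. An intronic region 12586 bp from the nearest Lca5 TSS (chr9:83428183-83428872) was called in all 6 lists, with 62, 80 and 114 fragments in control against 57, 68 and 37 in 4xIOP. The promoter was called in 1 list, with 48 fragments. A neighbouring region (chr9:83427376-83427986) was called in all lists but 4xIOP replicate 3, with 42 to 87 fragments. The 200 bases round the summit of the first region are shown because this region, not the promoter, carried the recurrent mark of Lca5. No capitals are set, since the only motif looked for there, the core TAATCC, was not in it.
Lca5 intron (GRCm38 chr9:83428338-83428537, + strand): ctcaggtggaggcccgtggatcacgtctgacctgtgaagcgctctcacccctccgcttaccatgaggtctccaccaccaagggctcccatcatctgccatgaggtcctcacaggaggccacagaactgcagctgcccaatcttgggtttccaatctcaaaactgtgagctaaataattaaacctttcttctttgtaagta

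The core TAATCC was absent from such 200-base windows in 10 of 10 member regions called in all 6 lists. Each window was centred on the median of the peak summits in its region. The core was found in 5.32% of all 1805 regions far from a TSS that were called in all 6 lists. At so low a share, 10 regions are too few for its absence to set the members apart.

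Rp1 had an intronic region in all 6 lists (chr1:4383246-4383771) that lay 23151 bp from its nearest TSS, with 63, 63 and 116 fragments in control against 48, 57 and 44 in 4xIOP. Ttc8, a BBSome subunit with a retina-specific isoform, had an intronic region (chr12:98932797-98933725) with 46, 52 and 74 fragments in control against 47, 53 and 33 in 4xIOP. Cep290, a scaffold of the transition zone, had one (chr10:100501349-100502272) with 46, 46 and 73 in control against 36, 45 and 27 in 4xIOP. In each of these regions control replicate 3 was the highest list and 4xIOP replicate 3 the lowest, as in the lists as a whole.

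Weaker regions called in all 6 lists lay in Bbs1, Bbs2 and Rpgrip1. The region of Bbs1 (chr19:4889003-4890353, overlapping an exon) had 29, 38 and 47 fragments in control against 38, 34 and 19 in 4xIOP. That of Bbs2 (chr8:94072441-94074797, intronic) had 22, 24 and 46 in control against 30, 46 and 18 in 4xIOP. That of Rpgrip1 (chr14:52118687-52119601, with summits in exons and introns, the highest exonic and 7120 bp from the nearest TSS) had 40, 28 and 31 in control against 24, 19 and 24 in 4xIOP. The fragments of the Rpgrip1 region did not overlap between the groups, but over the background mean of each list they did.

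Regions called in 5 lists were found in Bbs9, Ttc8, Ift81, Ift140, Cep290, Nphp4, Rp1 and Lca5. Ift140 held 2 of them (chr17:25021760-25022231 and chr17:25022377-25023258, both intronic), with 19 to 50 and 20 to 39 fragments. The region of Bbs9 (chr9:22513093-22513573, intronic) was missing from 4xIOP replicate 1 and had 15 to 30 fragments elsewhere. That of Ift81 (chr5:122585264-122586724, intronic) was missing from control replicate 1 and had 18 to 25. That of Nphp4 (chr4:152487301-152488089, intronic) was missing from 4xIOP replicate 3 and had 24 to 45. Of the regions called in 5 lists, only that of Ift81 lacked a control list. The others lacked a 4xIOP list, which was replicate 3, the shortest list, in all but Bbs9 and 1 region of Ift140. Ift43 had a gene-body peak in 5 lists, Bbs5 and Ahi1 in 4, and Spata7, Cc2d2a and Kif17 in 3. The region of Kif17 called in 3 lists lay 119 bp from the TSS of Sh2d5, a promoter of another gene.

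**Figure D5:**
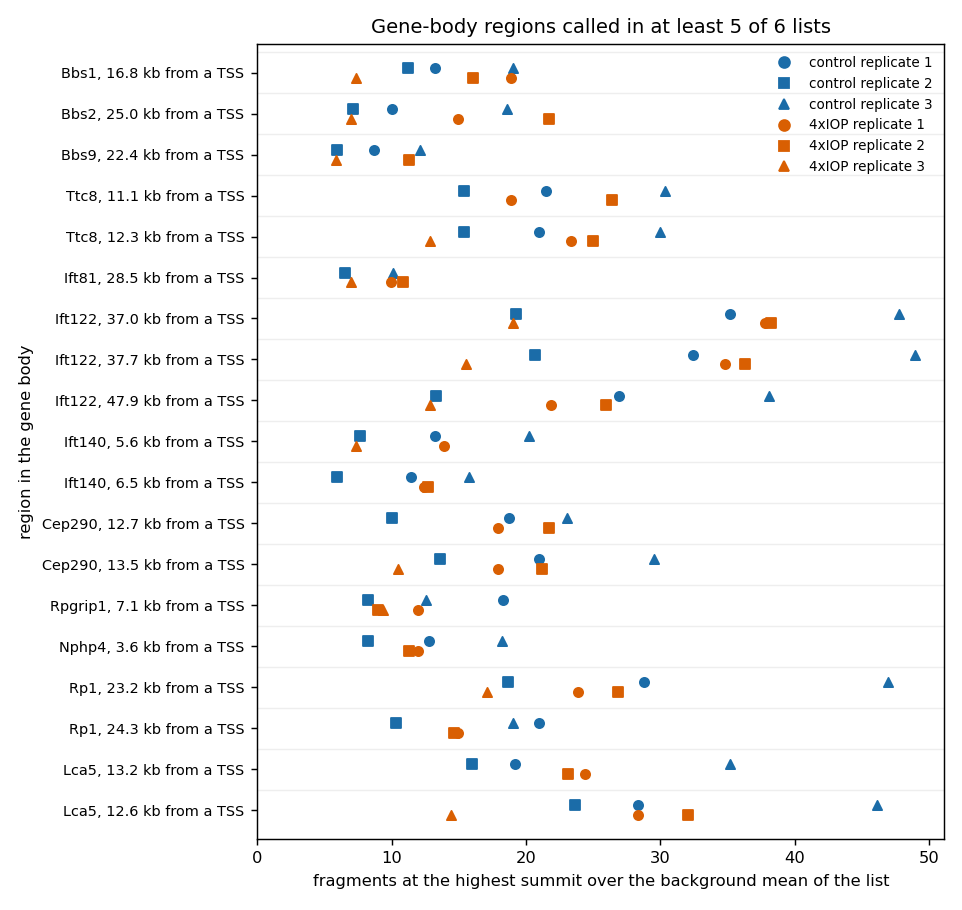
Fragments at the highest summit, over the background mean of the list, of member gene-body regions called in at least 5 of the 6 lists (rows). Blue symbols are the 3 control lists and orange symbols the 3 4xIOP lists, and their ranges overlap in each of the 19 regions.

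Among the gene-body regions of members, 2 were called in each control list but without a call in 4xIOP, and 0 had the opposite pattern. Over all 13825 gene-body regions the shares were 0.969% and 0.0145%. The region in Bbs5 (chr2:69650010-69650490, intronic, 2881 bp from the TSS) had 33, 30 and 53 fragments in control. The region in Lca5 (chr9:83392657-83393369, intronic) had 24, 24 and 36. A difference in call can come with the length of a list, and the part of list length in these 2 regions was not tested.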

How the data were processed

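H3K27ac ChIP-seq of 6 retinas (3 control, 3 4xIOP) was analysed from 1 narrowPeak list per sample. Per the labels, the submitters' processing notes name MACS2, STAR 2.7.8a, HOMER, bedtools 2.29.2 and mm10, with no role given. The peak-calling parameters are not given in the sources used here. The fold enrichment of each deposited peak is the authors' ratio of pile-up to local background. The authors deposited the significance of a peak as −log10 of its p-value and of its q-value, and the lowest −log10 q was 1.31. The integer score column deposited with each peak was not used, and columns of no sample numbered 0. Whole fragments and local background were recovered from fold and p under a Poisson model within 0.001 on the −log10 scale, and the lowest background of a list served as its mean background (per 10000 bp with the shortest peak as the fragment length). Lists of equal length kept the peaks with the smallest q.

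Genes, TSS and exons were those of GENCODE vM21 basic (GRCm38), with chromosomes 1 to 19, X and Y used and an overlap of at least 1 bp. Motif windows were RefSeq promoters of GRCm38.p6. Scores were tested with limma 3.58.1 in R 4.3.3 with Benjamini-Hochberg adjustment over 8669 promoters, and the scripts were tested on simulated data. Python 3.11.15, numpy 2.4.6, pandas 2.3.3, scipy 1.17.1 and matplotlib 3.10.9 were used for the rest. Named genes were the 6 highest and 6 lowest members by mean fold percentile among those marked in all 6 lists, members marked in 1 to 5 lists, the 3 per direction with the smallest limma p, and members with gene-body peaks in at least 3 lists. Members, lists and tests were chosen with earlier results of these data known. Depth is known only as the background of each list (87.4 to 173 fragments per 10000 bp). The labels give the retinas of a group as separate samples and say no more of their origin, so p-values measure the spread between these samples. The controls are contralateral eyes, but the labels do not say which eyes belong together, so no pairing was assumed. Same-numbered samples did not deviate together, which cannot show that the eyes are unpaired. Of the 54 other cilium genes, 53 were counted for peaks. Some values are not reported here.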

Additional observations from a re-analysis of the deposited data

How the results depend on the processing

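Under 16 alternatives limma called 0 promoters, with 179 to 479 at an unadjusted p under 0.05 and smallest adjusted p from 0.46 (without 4xIOP replicate 1) to 0.9999. The replicate number as a block gave 0 calls as well, and 237 promoters at an unadjusted p under 0.05. The labels do not say whether equal replicate numbers pair the eyes, and the data gave no sign of it (correlations of the deviations -0.0167, -0.0443 and -0.144). With 3 lists per group these correlations cannot exclude pairs. With the block the difference of Spata7 was 1.18 ± 0.40 (SE). The 6 named score differences kept their sign in every alternative that gave a value (15 for Rpgr, 16 for each of the others). None of these moves a list to the other group, so the signs are given for the groups as labelled only, and grouping by carried name was not tested. In the scores of the lists grouped by carried name, the differences of Spata7, Bbs9 and Ift81 take the opposite sign. Those of Ift52, Rpgr and Bbs10 keep their sign and are smaller in size. Chosen after seeing the data and with no test, the difference between the lists whose carried name is that of their label was 1.03 for Spata7, 0.26 for Bbs9, 1.12 for Ift52, -1.83 for Rpgr, -1.36 for Bbs10 and -1.06 for Ift81. With each list left out in turn, Spata7 ranged from 0.88 to 1.53, Bbs9 from 0.29 (without 4xIOP replicate 2) to 0.78, Ift52 from 0.30 to 1.31 (lowest without control replicate 2, highest without replicate 1), Rpgr from -1.68 to -0.53 (without control replicate 1), Bbs10 from -1.21 to -0.54 (without control replicate 3) and Ift81 from -1.17 to -0.38 (without 4xIOP replicate 2).

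With every list shortened to its 16195 strongest peaks, the difference in members with a promoter peak was 1.67 and in members with a gene-body peak 3.00. With only the lists whose carried name is that of their label, these differences were -5.00 and -8.00, and 5 members were marked in control alone (12.5% of all coding genes), against 0 with all lists. With each list left out in turn, they ranged from -2.67 to -0.500 and from -3.50 to -0.333, and were smallest without control replicate 3 in both cases. No member was exclusive to a group with any 1 list left out. Lists state no read counts, so a promoter without a peak is one not called at the depth of that list.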
